A study of Mus musculus with 3 samples.

Results

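B-lineage cells were found among phagocytes sorted from mouse Peyer's patches, the lymphoid follicles of the small intestine. They were chosen by transcript: at least 500 detected genes, at most 10% of UMIs (unique transcript molecules) from mitochondrially encoded genes, at least 3 UMIs of Cd79a, which encodes the signalling chain CD79A of the B cell receptor, and under 80 UMIs of Lyz1, C1qa, C1qb and C1qc together per 10000 UMIs. The rule kept 210 of 15434 cells that passed the first 2 limits. The study set mice given a Toll-like receptor agonist against untreated mice, with 1 library of droplet single-cell RNA sequencing per group. The CpG library held 57 B-lineage cells of 5023, from mice given 125 µg of the TLR9 agonist CpG. The R848 library held 84 of 5107, from mice given 10 µg of the TLR7 agonist R848. The Control library held 69 of 5304, from mice that received no injection. Both agonists were injected into the peritoneum in 100 µL of PBS 9 h before collection, so the injection itself is part of both treated groups. Each library pooled 12 female C57BL/6Rj mice, with 85 patches for CpG, 90 for R848 and 88 for Control. CD11c-positive cells were enriched with magnetic beads and sorted as cDC1, cDC2, LysoDC and macrophages. The stain named in the protocol held CD11c, MHC class II, SIRPa, Bst2, CD4, CD11b, XCR1 and CD24 and no B cell marker, so these cells lie outside the classes that were sorted.

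B cells recognise antigen through a surface immunoglobulin that signals through CD79A and CD79B. In Peyer's patch follicles, activated B cells meet antigen beneath the epithelium, enter germinal centres, where antibody genes are mutated and switched, and give rise to plasma cells. Many of these make IgA, which is joined by the J chain, encoded by Jchain, and carried into the gut lumen. B cells carry TLR7 and TLR9 and can also respond to type I interferon made by other cells.

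With 1 library per group there is no replicate and no test. All intervals are at 95% and reflect counting error alone: exact Poisson for levels, exact binomial for ratios and Clopper-Pearson for shares. UMIs were summed over the B-lineage cells of a library and are given as CPM, counts scaled to that sum. Log2 ratios were taken with 5 CPM added to both libraries, which understates the change of low genes. A gene is called higher or lower when that ratio was at least 2-fold and the interval of the count ratio left out 1. Genes had to reach 20 CPM in 1 or both libraries to be tested. Such a call sets 2 libraries of pooled mice against each other, not 2 conditions.

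3 promoters are shown, because the genes they serve carry the results that follow: Vpreb3, which marks the lineage, Ccr6, which is the chemokine receptor of subepithelial B cells, and Isg15, which is an interferon-stimulated gene. They are RefSeq sequences of build GRCm38.p6 from 250 bases before to 50 after the gene's start, given 5′ to 3′ on the strand of the gene. Capitals mark the octamer ATTTGCAT, the motif of the factors that bind with the coactivator encoded by Pou2af1, in Vpreb3 (chr10:75948050-75948349, plus strand) and Ccr6 (chr17:8235793-8236092, plus strand). In Isg15 (chr4:156200769-156201068, minus strand) they mark overlapping matches to a short form of the interferon-stimulated response element, GAAA followed by GAAA after 2 bases of any kind.
Vpreb3: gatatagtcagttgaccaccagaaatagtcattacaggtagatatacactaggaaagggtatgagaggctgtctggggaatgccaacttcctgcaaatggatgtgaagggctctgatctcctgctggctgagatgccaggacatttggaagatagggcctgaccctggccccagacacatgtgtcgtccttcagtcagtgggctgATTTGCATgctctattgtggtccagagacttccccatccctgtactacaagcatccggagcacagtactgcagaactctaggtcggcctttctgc
Ccr6: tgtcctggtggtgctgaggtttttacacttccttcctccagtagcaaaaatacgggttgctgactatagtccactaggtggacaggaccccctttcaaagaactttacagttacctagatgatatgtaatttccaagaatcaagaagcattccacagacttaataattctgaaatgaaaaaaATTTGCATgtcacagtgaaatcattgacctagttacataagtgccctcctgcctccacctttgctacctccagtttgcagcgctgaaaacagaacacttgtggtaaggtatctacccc
Isg15: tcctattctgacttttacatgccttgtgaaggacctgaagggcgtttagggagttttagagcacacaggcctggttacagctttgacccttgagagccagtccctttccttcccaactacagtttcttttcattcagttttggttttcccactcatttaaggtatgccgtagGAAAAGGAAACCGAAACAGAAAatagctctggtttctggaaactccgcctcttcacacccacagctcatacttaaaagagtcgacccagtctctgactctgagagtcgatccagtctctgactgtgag
The octamer lay at -45 to -38 in Vpreb3 and at -68 to -61 in Ccr6. The 3 response element matches of Isg15 spanned -78 to -57. On either strand, the octamer was present in 570 of 32851 RefSeq promoters of the same length (1.74%) and the response element form in 1131 (3.44%). No octamer was in the windows of Cd79a, Jchain, Pou2af1, Spib, Fcrla, Isg15, Irf7 or Ifit3, and none in the other window of Ccr6. The response element form had no match in the window of the interferon-stimulated gene Irf7, 2 in that of Ifit3 and 1 in that of Fcrla, a B cell gene outside the interferon list, and none in the other windows. A match is a description of the letters and not of binding. Promoters were found for 10 of 15 genes looked up.

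The B-lineage cells were 1.13% of kept cells with CpG (0.861 to 1.47), 1.64% with R848 (1.31 to 2.03) and 1.30% in Control (1.01 to 1.64). The intervals of the 3 libraries overlapped, and the sort gates and the bead enrichment can set these shares. Median depth was 8118 UMIs per B-lineage cell with CpG, 7412 with R848 and 5962 in Control, against 7526 with CpG, 8259 with R848 and 7557 in Control in the other kept cells. The summed B-lineage UMIs came to 491195 with CpG, 720537 with R848 and 478497 in Control. The chosen cells held a median of 20.5 Cd79a UMIs and at most 137, so few cells were near the limit: 2 cells had exactly 3 UMIs. The 6 cells with 2 Cd79a UMIs, just outside, held 843 CPM of Mzb1 and 697 CPM of Vpreb3 but 10084 CPM of the dendritic gene Cst3, against 678 CPM of Cst3 in the 2 cells just inside. The 100 cells with 1 Cd79a UMI held 5.75 CPM each of Vpreb3 and Mzb1. On the other limit, 24 cells with at least 3 Cd79a UMIs were left out for their lysozyme and complement UMIs, 3 with CpG, 8 with R848 and 13 in Control, and they held 782 CPM of Mzb1 beside 10139 CPM of Lyz1.

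Doublets, droplets with more than 1 cell, were looked for in 3 ways. Scores against simulated doublets marked 11 B-lineage cells, 5 with CpG, 6 with R848 and 0 in Control, among 636 marked cells in all. 5 B-lineage cells held more than 25 UMIs per 10000 of 8 dendritic cell markers that leave out Cst3, 4 with CpG, 0 with R848 and 1 in Control. T cell markers were seen in 23 B-lineage cells, and their sum over 7 genes was 14.3 CPM with CpG, 11.1 CPM with R848 and 37.6 CPM in Control, with 1 of the 7 at 0. The sums of the neutrophil list were 4.07 CPM with CpG, 2.78 CPM with R848 and 4.18 CPM in Control. Siglech, a marker of plasmacytoid dendritic cells, reached 3 UMIs in 4 B-lineage cells. Free RNA, estimated from complement genes in cells that should lack them, came to 2.80% of UMIs with CpG, 2.49% with R848 and 3.95% in Control. Libraries shared 42 cell barcodes between CpG and Control, 33 between R848 and Control and 35 between R848 and CpG, and no shared barcode was B-lineage in both.

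The marker genes fitted the label. Pooled over the 3 libraries, Mzb1, a chaperone of antibody secretion on chromosome 18 (18:35647267-35649367 in mm10), was at 3063 CPM, against 3.95 CPM in all other kept cells. Vpreb3, which encodes a protein of the B cell receptor assembly, was at 1391 CPM, against 1.92 CPM. Jchain (5:88519809-88527891) was at 9738 CPM, against 10.3 CPM. Pou2af1, the B cell coactivator also called OBF1, was at 350 CPM, against 0.546 CPM. Cd79a itself was at 3303 CPM, against 4.32 CPM, and chose the cells. Ms4a1, which encodes CD20, was at 397 CPM, against 6.15 CPM, and Ly6d, an early B-lineage surface protein, was at 2510 CPM, against 7.25 CPM. The transcription factors Ebf1 (314 CPM, against 2.34 CPM) and Mef2c (532 CPM, against 6.20 CPM) were high as well, as were Fcrla, a receptor-like protein of B cells (328 CPM, against 1.94 CPM), and the CD45-associated Ptprcap (784 CPM, against 13.5 CPM). The lowest genes were those of complement and lysozyme, which the rule limits: C1qa was at 113 CPM, against 4116 CPM, and Lyz1 at 271 CPM, against 7792 CPM. Pla2g2d, a secreted phospholipase that the rule does not name, was at 22.5 CPM, against 932 CPM.

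Because Cd79a, Lyz1 and the C1q genes chose the cells, the contrast with the other cells is a description. Over all 5693 genes with at least 20 CPM, 14.2% were at least 2-fold higher in the B-lineage cells and 15% at least 2-fold lower. Of 19 pan-B genes measured 18 were higher, of 16 plasma genes 13, of 19 B cell receptor signalling genes 11 and of 19 cell cycle genes 18. Of 7 follicular genes measured 5 were higher. Ccr6, the receptor for CCL20, was at 188 CPM in the B-lineage cells, against 17.9 CPM in the others. Tnfrsf13c, the BAFF receptor, was at 211 CPM, against 5.84 CPM, and Cd38 at 151 CPM, against 24.4 CPM. Fcer2a, which encodes CD23, was at 24.9 CPM, against 0.48 CPM, and Cxcr5, the follicle homing receptor, at 28.4 CPM, against 3.66 CPM. Genes of recirculating naive B cells stayed under 20 CPM. Klf2 was at 7.10 CPM, S1pr1 at 14.2 CPM, against 2.59 CPM in the others, and the complement receptor Cr2 at 13.02 CPM, against 0.258 CPM.

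Germinal centre genes were divided: of 6 measured 4 were higher in the B-lineage cells and 1 lower. Eaf2 was at 65.7 CPM in the B-lineage cells, against 0.46 CPM in the others, and Aurkb, a mitotic kinase, at 76.3 CPM, against 7.30 CPM. Bcl6, the transcription factor that defines germinal centre B cells, had 2 UMIs in all 210 cells, 1.18 CPM, against 4.60 CPM in the others. Mef2b had no UMI, S1pr2 was at 5.92 CPM, Gcsam at 2.37 CPM and Rgs13 at 1.77 CPM. Of 4 marginal zone and B-1 genes measured 1 was higher and 2, Cd9 and Cd1d1, were lower, with a median log2 ratio of -0.77. The higher one was Bhlhe41, a transcription factor of mouse B-1 cells, at 128 CPM, against 0.77 CPM. Cd5, a B-1a surface protein, had 1 UMI in all 210 cells. The sort selected CD11c, yet Itgax, the gene of CD11c, was at 74.5 CPM in the B-lineage cells, against 164 CPM in the others, and Itgam, the gene of CD11b, at 3.55 CPM, against 27.5 CPM. Of 4 genes measured from a list of CD11c-positive B cells 3 were lower, Itgax, Itgam and the transcription factor gene Zeb2, and 1 was higher, Fcrl5, at 30.2 CPM, against 0.87 CPM. The median log2 ratio of these 4 was -1.06. Immunoglobulin constant genes were not analysed here, so isotypes are not given.

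Leiden clustering of the 210 cells gave 7 clusters, which are described by their leading genes. The plasma-like cluster of 37 cells held 50406 CPM of Jchain and 9004 CPM of Mzb1. It held 1725 CPM of Xbp1, the transcription factor of the secretory programme, 152 CPM of Prdm1, which encodes Blimp-1, 1034 CPM of the disulphide isomerase gene Txndc5 and no UMI of Pax5, the factor that keeps B cell identity. The pan-B list as a whole was not low there, at 15282 CPM with CpG, 15871 CPM with R848 and 17560 CPM in Control. In all B-lineage cells that list summed to 11106 CPM with CpG, 11948 CPM with R848 and 10222 CPM in Control. Ccr10, a receptor that leads IgA plasmablasts to mucosa, was detected in 10 cells of the plasma-like cluster and in 2 cells of another cluster. A cluster of 29 cells led by Lipc and Prg3 held 4967 CPM of Jchain, 895 CPM of Xbp1, 201 CPM of Prdm1, 503 CPM of Ms4a1 and 11.2 CPM of Pax5. A cluster of 51 cells led by Ifit3 and Nxpe3 held 5.60 CPM of Jchain with 423 CPM of Ccr6 and 314 CPM of Bhlhe41. Its Ifit3 came from few cells: 67 UMIs in 6 R848 cells, 10 in 3 CpG cells and 1 in 1 of 29 Control cells. The name therefore does not describe most cells of this cluster. A cluster of 26 cells led by Id3 and Cd37 held 12.0 CPM of Jchain, 915 CPM of Ms4a1, 263 CPM of Ccr6 and 161 CPM of Cd22. A cluster of 35 cells led by cell division genes held 390 CPM of Mki67 and 2288 CPM of Jchain. Outside the clusters with dendritic genes described next, 86 of 178 cells held a Jchain UMI and 147 a Ms4a1 UMI, and 66 held both. A single UMI can be free RNA: of the other kept cells 3.05% held a Jchain UMI and 3.47% a Ms4a1 UMI. After each cell was thinned to 3000 UMIs the shares were 44.2% for Jchain and 63.4% for Ms4a1 in the B-lineage cells outside those clusters, against 1.20% and 1.83% in the other kept cells.

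**Figure D1:**
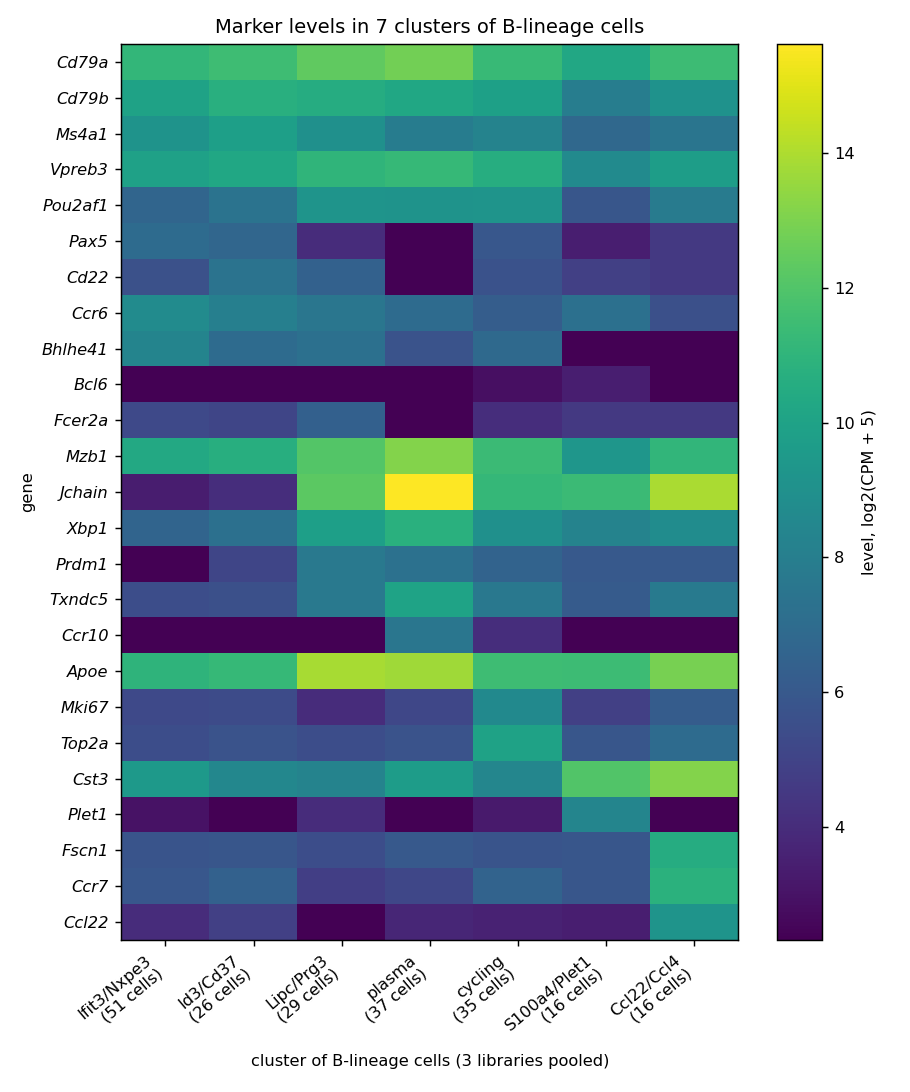
Heat map of marker genes (rows) in the 7 clusters of B-lineage cells (columns, named by leading genes), pooled over libraries and coloured by log2(CPM + 5). Jchain reached 50406 CPM in the plasma-like cluster and 5.60 CPM in the cluster led by Ifit3, while Cst3 reached 8953 CPM in the cluster led by Ccl22.

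The other 2 clusters held dendritic transcripts beside the B-lineage genes. The 16 cells led by S100a4 and Plet1 held 4156 CPM of Cst3 and 1246 CPM of Cd79a. The 16 cells led by Ccl22 and Ccl4 held 8953 CPM of Cst3, 1768 CPM of the chemokine receptor gene Ccr7, 1487 CPM of the actin-bundling Fscn1, 2798 CPM of Cd79a and 15548 CPM of Jchain. Of the Jchain UMIs there, 1207 were in 1 CpG cell. Median depth was 10538 and 9936 UMIs in these clusters, against 5425 to 6223 in the 4 clusters of B-lineage cells led by neither dendritic nor division genes. All 11 cells marked as doublets lay in the cluster led by Ccl22. The 32 cells came 14 from CpG, 8 from R848 and 10 from Control. Results are therefore also given without them, for the remaining 43 CpG, 76 R848 and 59 Control cells, an alternative chosen after seeing the data.

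**Figure D2:**
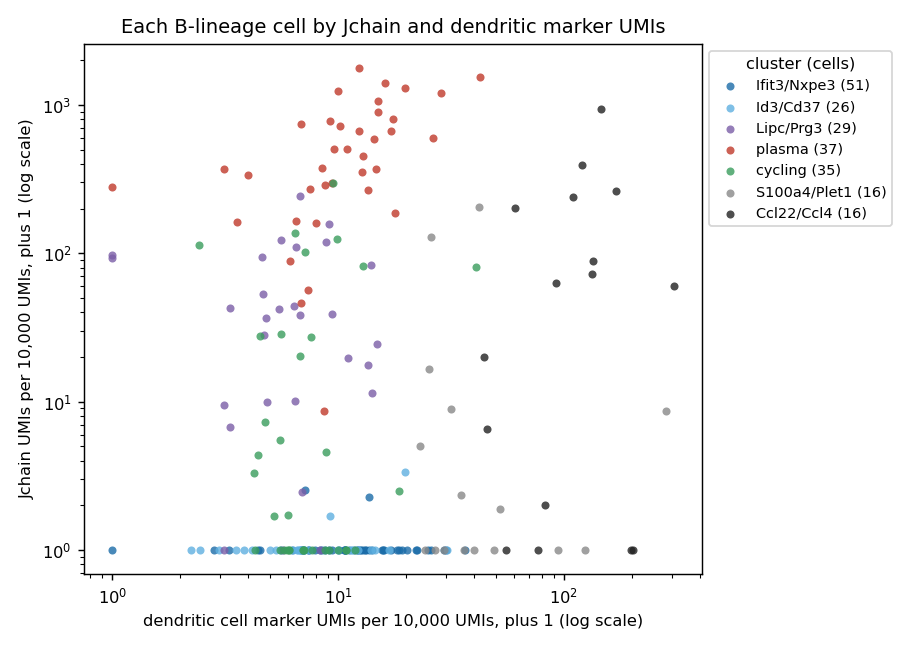
Each point is 1 of the 210 B-lineage cells, by its UMIs summed over the 16 genes of the dendritic cell list (x) and its Jchain UMIs (y), both per 10000 UMIs with 1 added on log axes and coloured by cluster. Jchain was 0 in 21 CpG, 45 R848 and 38 Control cells and reached 1553 per 10000 in a CpG cell, 1770 in an R848 cell and 597 in a Control cell.

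Jchain differed most among the lineage markers between libraries. It was at 16397 CPM with CpG (16041 to 16759), 9235 CPM with R848 (9014 to 9459) and 3661 CPM in Control (3492 to 3837), and no intervals overlapped. The log2 ratio was 2.16 for CpG over Control and 1.33 for R848 over Control. Cells with at least 100 Jchain UMIs per 10000 numbered 17 with CpG, 24 with R848 and 9 in Control. Vpreb3 was level, at 1460 CPM with CpG, 1299 CPM with R848 and 1459 CPM in Control, and so was Pou2af1, at 338 CPM with CpG, 368 CPM with R848 and 334 CPM in Control. Cd79a was at 3471 CPM with CpG, 3439 CPM with R848 and 2924 CPM in Control, and Mzb1 at 3029 CPM with CpG, 3528 CPM with R848 and 2399 CPM in Control. None of these 4 was called in either comparison with Control.

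The share of plasma-like cells was higher in both treated libraries than in Control, but their intervals overlapped that of Control, which rests on few cells. The share was about the same with CpG as with R848, whereas Jchain was higher with CpG than with R848. To compare cluster sizes, the cells were clustered again without 942 genes, those called in any comparison between libraries and the interferon-stimulated list. The cluster led by plasma genes then held 12 of 57 CpG cells (21.1%, 11.4 to 33.9), 17 of 84 R848 cells (20.2%, 12.3 to 30.4) and 4 of 69 Control cells (5.80%, 1.60 to 14.2). All 33 of these cells were in the plasma-like cluster of the first clustering. That cluster gave 67.5% of the Jchain UMIs with CpG, 80.8% with R848 and 44.6% in Control. Within it Jchain was at 61938 CPM with CpG (60303 to 63606), 45028 CPM with R848 (43832 to 46247) and 34200 CPM in Control (31844 to 36685). In the cluster with dendritic genes led by Ccl22, which held no Control cell, Jchain was at 17049 CPM with CpG and 13344 CPM with R848. With CpG 1207 of the 1664 UMIs there were in 1 cell, and 5 of 9 cells held any. That cell is part of the summed CpG level of Jchain as well. Without the plasma-like, dividing and dendritic-gene clusters, Jchain was at 1533 CPM with CpG, 842 CPM with R848 and 1487 CPM in Control, and the log2 ratio over Control was 0.04 with CpG and -0.82 with R848. In summed counts, more plasma-like cells and more Jchain RNA in each such cell cannot be told apart.

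**Figure D3:**
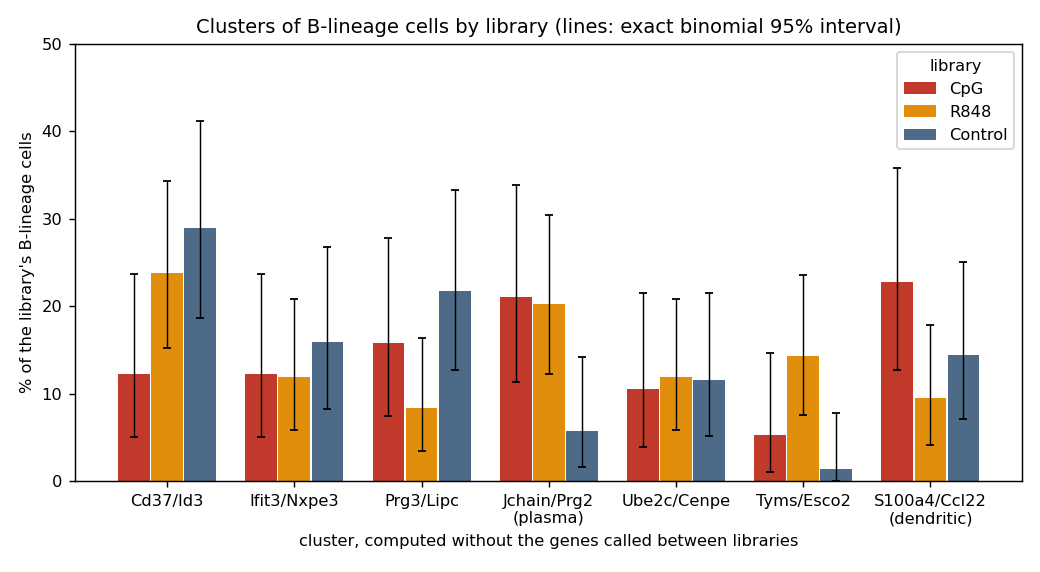
Share of the B-lineage cells of each library in each of the 7 clusters made without the genes that differed between libraries, with Clopper-Pearson 95% intervals. The plasma cluster held 21.1% of CpG, 20.2% of R848 and 5.80% of Control cells, and both treated intervals overlapped that of Control.

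Of all 5540 genes tested, 6.03% were at least 2-fold higher with CpG than in Control and 2.09% at least 2-fold lower. Of 16 plasma genes measured 4 were higher with CpG and none lower, with a median log2 ratio of 0.59, against 0.04 over all genes. Irf4, a transcription factor of plasma cell differentiation, was at 67.2 CPM with CpG and 18.8 CPM in Control, Txndc5 at 350 CPM with CpG and 140 CPM in Control, and Ly6c2, an antigen of plasma cells and monocytes, at 34.6 CPM with CpG and 8.36 CPM in Control. Of 5415 genes tested for R848, 5.6% were at least 2-fold higher than in Control and 3.42% at least 2-fold lower. Jchain, Irf4 and Ly6c2 were the 3 plasma genes of 16 that were higher with R848, and without the dendritic-gene clusters Jchain was the 1 left of 15, where 5.27% of all genes were called higher. Xbp1, at 757 CPM with CpG, 526 CPM with R848 and 424 CPM in Control, and Prdm1, at 77.4 CPM with CpG, 83.3 CPM with R848 and 75.2 CPM in Control, were not called in these comparisons. Without the plasma-like, dividing and dendritic-gene clusters, none of 15 plasma genes was higher with CpG or with R848, against 4.24% and 4.16% of all genes.

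Genes outside the plasma list moved with it. Prg2, which encodes eosinophil major basic protein and led the plasma-like cluster here, was at 214 CPM with CpG, 298 CPM with R848 and 25.1 CPM in Control. It was seen in 15 CpG, 19 R848 and 9 Control cells, with at most 52 UMIs in 1 CpG cell, 69 in 1 R848 cell and 2 in 1 Control cell. Its log2 ratio over Control was 2.86 with CpG and 3.33 with R848. Ccr10 was at 42.8 CPM with CpG, 36.1 CPM with R848 and had no UMI in Control, where 3 counts would be 6.27 CPM. Against that limit it was at least 6.82-fold higher with CpG and at least 5.76-fold higher with R848. The Ccr10 UMIs came from 6 CpG and 6 R848 cells. Most were in the plasma-like cluster, where Control gave 5 cells and its interval reached 162 CPM. That overlapped the intervals of CpG (148 to 366) and R848 (109 to 269) in the cluster. Too few plasma-like Control cells were seen to tell whether Ccr10 differed within them. Of 11 homing and adhesion genes measured 3 were higher with CpG, Ccr7, Ccr10 and Itgb1, against 6.03% of all genes. With R848 3 were higher, Ccr7, Cxcr5 and Ccr10, against 5.6% of all genes, and none was lower with either agonist. Part of the Ccr7 level came from the cluster with dendritic genes led by Ccl22, which held no Control cell. Ccr7 was at 1768 CPM there, against 60.3 CPM in the other clusters, and its levels without the dendritic-gene clusters are given below.

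Interferon-stimulated genes were higher in both treated libraries. The 36 genes of the list summed to 10360 CPM with CpG, 8081 CPM with R848 and 1687 CPM in Control. With CpG 33 of the 33 members that reached 20 CPM were called higher than in Control, against 6.03% of all genes. Their median log2 ratio was 2.24. With R848 it was 28 of 30, against 5.6% of all genes. Their median was 1.81, against 0.07 over all genes. Members can pass that limit through the treated library. The sum over the whole list does not depend on the limit, but a few abundant genes, such as Ifi27l2a and Ly6a, carry much of it. Ly6a, the surface protein Sca-1, was at 1295 CPM with CpG, 1296 CPM with R848 and 251 CPM in Control, a log2 ratio of 2.35 for each treatment. Its level was lower in the other kept cells, where Ly6a was at 31.6 CPM with CpG, 128 CPM with R848 and 4.29 CPM in Control. Ifi27l2a was at 3840 CPM with CpG, 3374 CPM with R848 and 608 CPM in Control. Bst2, tetherin, was at 774 CPM with CpG, 611 CPM with R848 and 176 CPM in Control.

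Isg15, a ubiquitin-like protein (4:156199424-156200818), had the highest ratio of the list with CpG. It was at 1114 CPM with CpG (1022 to 1211), 372 CPM with R848 (329 to 419) and 39.7 CPM in Control (23.9 to 62.0). Part of the CpG level came from the dendritic-gene clusters: without them Isg15 was at 489 CPM with CpG, 344 CPM with R848 and 42.0 CPM in Control. Irf7, the transcription factor that amplifies interferon production, behaved likewise, at 309 CPM with CpG, 126 CPM with R848 and 23.0 CPM in Control, and 137 CPM with CpG, 103 CPM with R848 and 23.6 CPM in Control without those clusters. Ifit3 was at 77.4 CPM with CpG, 101 CPM with R848 and 8.36 CPM in Control, but was seen in 9 CpG, 11 R848 and 2 Control cells, with 31 of its 73 R848 UMIs in 1 cell. Xaf1, an interferon-induced gene linked to cell death, was at 157 CPM with CpG, 103 CPM with R848 and 12.5 CPM in Control. Without the dendritic-gene clusters the list sums were 9608 CPM with CpG, 8105 CPM with R848 and 1740 CPM in Control. Then 22 of 26 members were called higher than in Control with CpG, against 4.11% of all genes. With R848 it was 28 of 30, against 5.27% of all genes.

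**Figure D4:**
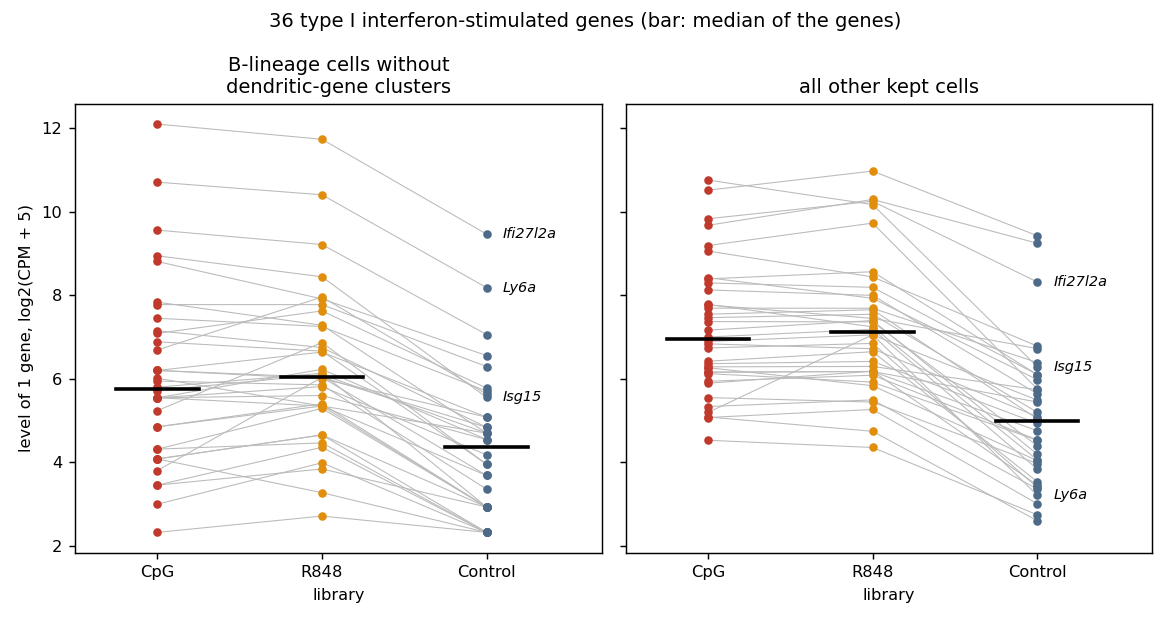
Levels of the 36 interferon-stimulated genes by library, as log2(CPM + 5), in B-lineage cells without the dendritic-gene clusters (left) and in the other kept cells (right); each point is 1 gene, grey lines join its values and the bar is the median. Ly6a lay at 1674 CPM with CpG, 1356 CPM with R848 and 286 CPM in Control on the left, against 31.6 CPM with CpG, 128 CPM with R848 and 4.29 CPM in Control on the right. In the other kept cells 32 of 35 measured members were called higher with each agonist, against 8.57% of all genes with CpG and 7.04% with R848.

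Within 5 of the 6 clusters of the first clustering with cells of every library, the interferon-stimulated list summed higher in both treated libraries than in Control. In these 5 clusters the treated intervals did not overlap that of Control. That clustering did not leave out the list, and Ifit3 was a leading gene, so cells can be placed in clusters by these genes. The sums therefore do not compare cells grouped apart from the list. In the cluster led by Ifit3 and Nxpe3 the sum was 5427 CPM with CpG, 10173 CPM with R848 and 1124 CPM in Control. In the plasma-like cluster it was 10534 CPM with CpG, 8019 CPM with R848 and 3241 CPM in Control, and in the dividing cluster 13652 CPM with CpG, 6259 CPM with R848 and 1550 CPM in Control. In the cluster led by Lipc and Prg3 it was 10673 CPM with CpG, 9606 CPM with R848 and 1994 CPM in Control, and in the cluster led by S100a4 6793 CPM with CpG, 7639 CPM with R848, from 1 cell, and 1476 CPM in Control. The exception was the cluster led by Id3 and Cd37, with 8447 CPM with CpG (7560 to 9409), 10319 CPM with R848 (9739 to 10924) and 6452 CPM in Control (5174 to 7949), where Control gave 2 cells. Isg15 in that cluster was at 410 CPM with CpG, 349 CPM with R848 and 513 CPM in Control, from 7 Control UMIs, and the intervals overlapped. Ly6a in the cluster led by Ifit3 and Nxpe3 was at 882 CPM with CpG, 1284 CPM with R848 and 106 CPM in Control, and in the plasma-like cluster at 1799 CPM with CpG, 1431 CPM with R848 and 788 CPM in Control. Ifit3 in the plasma-like cluster had 1 UMI with CpG, 1 with R848 and 0 in Control. After thinning, Isg15 was detected in 57.1% of B-lineage cells with CpG, 46.9% with R848 and 7.58% in Control, and in 87.9% with CpG, 81.7% with R848 and 14.5% in Control of the other kept cells. Thinning left 56 CpG, 81 R848 and 66 Control cells. With the estimated free RNA taken away, 32 of 33 members with CpG and 27 of 29 with R848 were called higher than in Control.

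The receptors themselves were at the edge of detection. Tlr7 was at 26.5 CPM with CpG (14.1 to 45.3), 26.4 CPM with R848 (15.9 to 41.2) and 12.5 CPM in Control (4.60 to 27.3). The intervals overlapped, and no difference was detectable at this depth. After thinning, a Tlr7 UMI was found in 10.7% of B-lineage cells with CpG, 8.64% with R848 and 3.03% in Control, against 4.37% with CpG, 6.02% with R848 and 2.58% in Control of the other kept cells. Tlr9, the receptor for CpG, had no UMI with CpG, 1 UMI with R848 and none in Control; 3 counts would be 6.11 CPM with CpG and 6.27 CPM in Control. Myd88, the adaptor of both receptors, was at 18.3 CPM with CpG, 12.5 CPM with R848 and 31.3 CPM in Control, and was called lower with R848. Outside the dendritic-gene clusters it was at 12.4 CPM with R848 and 18.4 CPM in Control, under the 20 CPM needed to be tested. Myd88 was the 1 call among 6 genes of the receptor list with R848, and none of 6 was called with CpG.

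Germinal centre genes were mixed. Of 7 measured 3 were higher with R848 than in Control, against 5.6% of all genes. Among them were Nuggc, a nuclear GTPase of germinal centre B cells (24.98 CPM with R848 and 6.27 CPM in Control), and Aurkb (104 CPM with R848 and 46.0 CPM in Control). With CpG none of 6 measured was called. Bcl6 had 1 UMI with CpG, 1 with R848 and none in Control. Eaf2 was at 106 CPM with CpG, 45.8 CPM with R848 and 54.3 CPM in Control, and was lower with R848 than with CpG. Of the genes that govern IgA class switching, Cd40 was the 1 of 11 higher with CpG than in Control, against 6.03% of all genes. Without the dendritic-gene clusters Cd40 was no longer called. The transcription factor gene Runx3 was the 1 of 9 lower with R848, against 3.42% of all genes. Each of these counts rests on 1 gene.

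Cell cycle genes were higher with R848. 6 of 19 were called higher than in Control, against 5.6% of all genes, with a median log2 ratio of 0.67. With CpG none of 19 was called and the median was 0.04. The list summed to 3056 CPM with CpG, 5318 CPM with R848 and 3147 CPM in Control. Rrm2, a subunit of ribonucleotide reductase, was at 114 CPM with CpG, 255 CPM with R848 and 77.3 CPM in Control. Tyms, thymidylate synthase, was at 77.4 CPM with CpG, 129 CPM with R848 and 37.6 CPM in Control, and Stmn1, a microtubule regulator, at 297 CPM with CpG, 550 CPM with R848 and 257 CPM in Control. Mki67, the proliferation antigen Ki-67, was at 112 CPM with CpG, 161 CPM with R848 and 77.3 CPM in Control. In the clustering without genes that differed, 2 clusters were led by division genes. The cluster led by Tyms, Esco2 and Mybl2, genes of DNA synthesis and chromosome cohesion, held 3 CpG cells (5.26%, 1.10 to 14.6), 12 R848 cells (14.3%, 7.61 to 23.6) and 1 Control cell (1.45%, 0.0367 to 7.81). The cluster led by mitotic genes such as Ube2c and Cenpe held 10.5% of CpG, 11.9% of R848 and 11.6% of Control cells. Without the dividing, plasma-like and dendritic-gene clusters, no cell cycle gene was called higher with R848 and 2 were called lower, against 2.36% of all genes called lower.

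Bhlhe41 was lower in both treated libraries, while markers of resting follicular B cells were mixed. Bhlhe41 (6:145858243-145865558) was at 52.9 CPM with CpG (34.6 to 77.6), 112 CPM with R848 (89.3 to 140) and 230 CPM in Control (189 to 277). It was called lower in both comparisons with Control, with ratios of 0.230 (0.144 to 0.356) for CpG and 0.489 (0.362 to 0.658) for R848. In the first clustering, which did not leave out the genes that differed between libraries, its level was highest in the cluster led by Ifit3 and Nxpe3. That cluster held 17.5% of CpG, 14.3% of R848 and 42.0% of Control cells. In the clustering without those genes, the cluster led by Ifit3 and Nxpe3 held 12.3% of CpG, 11.9% of R848 and 15.9% of Control cells, with overlapping intervals. It had 28 cells, against 51 in the first clustering, and the cells common to both were not counted. Its shares therefore do not show whether the cells with high Bhlhe41 were equally frequent in the 3 libraries. Within the cluster of the first clustering Bhlhe41 was at 103 CPM with CpG (47.1 to 196), 321 CPM with R848 (220 to 453) and 418 CPM in Control (326 to 527). The R848 and Control intervals overlapped and the CpG interval lay below both. After thinning, Bhlhe41 was detected in 21.4% of cells with CpG, 21.0% with R848 and 37.9% in Control. Fcer2a was at 24.4 CPM with CpG, 6.94 CPM with R848 and 52.2 CPM in Control, and the R848 level was called lower than that of CpG and that of Control. Ccr6 (17:8236043-8257141) was at 202 CPM with CpG, 136 CPM with R848 and 251 CPM in Control and was not called in any comparison. After thinning it was detected in 37.5% of CpG, 29.6% of R848 and 48.5% of Control cells, against 5.10% of the other kept cells. Cxcr5 was at 24.4 CPM with CpG, 40.2 CPM with R848 and 14.6 CPM in Control and was called higher with R848. Fcer2a and Cxcr5 were the 2 follicular genes of 7 called with R848 over Control, and none of 8 was called with CpG. Of 4 marginal zone and B-1 genes, Bhlhe41 was the 1 called with R848, and none of 3 genes measured from the CD11c-positive B cell list was called with either agonist.

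**Figure D5:**
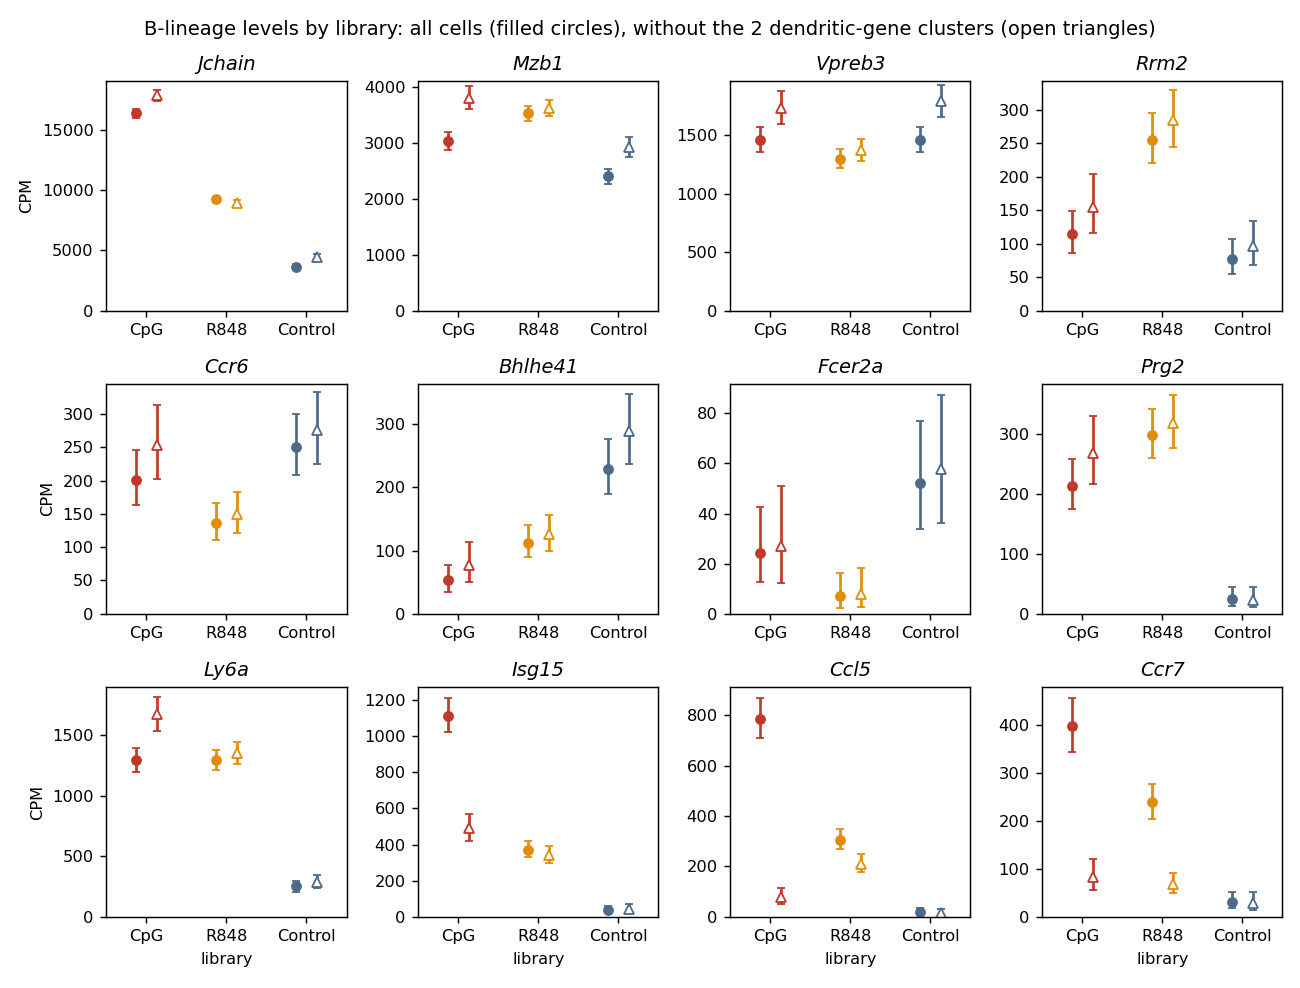
Levels of 12 genes in B-lineage cells by library (CPM, linear axes from 0) with Poisson 95% intervals, for all cells (filled circles) and without the dendritic-gene clusters (open triangles). Jchain was highest with CpG, at 16397 CPM, and Bhlhe41 in Control, at 230 CPM.

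Core B cell genes differed little. Of 19 pan-B genes measured none was called with CpG, with a median log2 ratio of -0.09. With R848 1 was called higher, Fcrla, a count near the 5.6% of all genes called higher, and the median of the list was 0.17. Fcrla was at 295 CPM with CpG, 440 CPM with R848 and 194 CPM in Control, with a log2 ratio of 1.16 for R848 over Control. Fcrla was at 476 CPM with R848 and 236 CPM in Control without the dendritic-gene clusters, and the log2 ratio of 0.995 was just under the 2-fold limit. Pax5 was at 32.6 CPM with CpG, 70.8 CPM with R848 and 48.1 CPM in Control. MHC class II genes, which present antigen to helper T cells, summed to 40955 CPM with CpG, 30641 CPM with R848 and 41902 CPM in Control. None of 11 was called with CpG, and H2-Oa, which encodes a chain of the peptide-loading regulator DO, was the 1 called lower with R848, at 121 CPM against 303 CPM in Control. In the other kept cells 7 of 11 were called lower with CpG, against 2.16% of all genes, and 6 of 11 with R848, against 2.65% of all genes. The difference between the 2 kinds of cell was not tested.

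B cell activation genes differed between the agonists. With CpG 6 of 18 measured were called higher than in Control, against 6.03% of all genes. Cd40, the receptor for T cell help, was at 89.6 CPM with CpG, 33.3 CPM with R848 and 35.5 CPM in Control. Ebi3, a chain of the cytokines IL-27 and IL-35, was at 40.7 CPM with CpG, 12.5 CPM with R848 and 8.36 CPM in Control, and Il6 was at 32.6 CPM with CpG, 8.33 CPM with R848 and 2.09 CPM in Control. Icosl, which encodes the ligand of the T cell receptor ICOS, was at 36.6 CPM with CpG, 5.55 CPM with R848 and 8.36 CPM in Control. Ebi3, Il6 and Icosl were under 20 CPM in Control and could be tested through the CpG library alone. A call of lower was thus hardly possible for these genes. Dendritic cells express several of these genes: in the other kept cells Cd40 was at 426 CPM with CpG, 135 CPM with R848 and 70.9 CPM in Control. Without the dendritic-gene clusters 2 of 17 remained called with CpG, against 4.11% of all genes. They were Ebi3, at 32.8 CPM with CpG and 5.25 CPM in Control, and Irf4. Cd40 was then at 65.6 CPM with CpG, 21.8 CPM with R848 and 39.4 CPM in Control. Plcg2, an enzyme of B cell receptor signalling, was at 83.5 CPM with CpG, 63.8 CPM with R848 and 33.4 CPM in Control. It was the 1 call among 19 receptor signalling genes with CpG, a count near the 6.03% of all genes called higher. None of 19 was called with R848. Plcg2 was called in all B-lineage cells and also without the dendritic-gene clusters, where it was at 98.5 CPM with CpG and 34.1 CPM in Control. With R848 Irf4 was called higher and Nfkbie, an inhibitor of NF-kB, and the early response gene Egr1 were called lower, of 15 measured.

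Among the genes with the highest CpG ratios were chemokines of dendritic cells and macrophages. Ccl4 was at 167 CPM with CpG and had no UMI in Control, which is at least 26.6-fold higher than the limit of 3 counts, but 78 of the 82 UMIs were in 1 cell. Wfdc17, at 155 CPM with CpG and 4.18 CPM in Control, had 52 of its 76 CpG UMIs in 1 cell. Ccl5 was at 786 CPM with CpG, 307 CPM with R848 and 18.8 CPM in Control. Without the dendritic-gene clusters Ccl5 was at 77.6 CPM with CpG, 211 CPM with R848 and 13.1 CPM in Control, and in the other kept cells at 3061 CPM with CpG, 4620 CPM with R848 and 78.4 CPM in Control. Ccl22 and Cxcl10 were at 187 CPM and 104 CPM with CpG and at 2.09 CPM each in Control. Without those clusters they were at 20.9 CPM and 5.97 CPM with CpG and at 2.62 CPM each in Control. Ccr7, which guides cells towards T cell zones, was at 397 CPM with CpG, 239 CPM with R848 and 31.3 CPM in Control, and at 83.5 CPM with CpG, 68.4 CPM with R848 and 28.9 CPM in Control without those clusters. The dendritic list summed to 3872 CPM with CpG, 1824 CPM with R848 and 2222 CPM in Control, and its part in these ratios beyond the clusters left out was not tested.

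The lowest ratios also held phagocyte genes. Il22ra2, the decoy receptor of IL-22, was at 26.5 CPM with CpG, 9.71 CPM with R848 and 165 CPM in Control, where 39 of 79 UMIs were in 1 cell. Lyz2, lysozyme of myeloid cells, was at 1030 CPM with CpG, 529 CPM with R848 and 3139 CPM in Control. Lyz2 in the other kept cells was at 22534 CPM with CpG, 22326 CPM with R848 and 29904 CPM in Control, and the free RNA estimate was highest in Control. Dcun1d5, which takes part in neddylation, was at 30.5 CPM with CpG and 109 CPM in Control. S100a4, a calcium-binding protein, was at 15.3 CPM with R848 and 230 CPM in Control, but at 1.56 CPM with R848 and 15.7 CPM in Control without the dendritic-gene clusters, where both levels were under the 20 CPM needed to be tested. Plbd1, a phospholipase B-like gene, was at 30.5 CPM with R848 and 188 CPM in Control, and at 26.4 CPM with R848 and 102 CPM in Control without those clusters.

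R848 and CpG were also set against each other. Of 5503 genes tested, 2.91% were at least 2-fold higher with R848 and 4.2% at least 2-fold lower. The genes higher with R848 were led by Gstt2, a glutathione transferase (264 CPM with R848 and 63.1 CPM with CpG), the histone gene Hist1h2ae (174 CPM with R848 and 44.8 CPM with CpG) and Prg3, a homologue of Prg2 (261 CPM with R848 and 69.2 CPM with CpG). The cell division genes Ccna2 (111 CPM with R848 and 34.6 CPM with CpG), Nusap1 (122 CPM with R848 and 42.8 CPM with CpG) and Tuba1b (1048 CPM with R848 and 393 CPM with CpG) followed. Pax5 and Bcl11a, both transcription factors of the B lineage, were higher with R848, with log2 ratios of 1.01 and 1.08. The genes lowest in R848 over CpG were Wfdc17, Ccl4, Ifitm1 and Ccl22. Without the dendritic-gene clusters Ifitm1 was at 18.7 CPM with R848 and 32.8 CPM with CpG and Ccl22 at 7.78 CPM with R848 and 20.9 CPM with CpG, and neither was called, while Wfdc17 and Ccl4 were under the 20 CPM needed to be tested. Of 33 interferon-stimulated genes 8 were lower with R848 than with CpG, among them Isg15, Irf7, Mx1 and Rsad2. When the dendritic-gene clusters were left out none of 30 was lower, against 2.08% of all genes, and 3 were higher, against 3.07% of all genes: Ifit1, Ifit3 and Phf11b. Cd40, with a log2 ratio of -1.30, and Ebi3, with -1.39, were lower with R848 than with CpG, and both were also called without the dendritic-gene clusters.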

How the data were processed

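Reads were aligned to mm10 and counted by the authors with Cell Ranger 2.0.0, per the submitters' processing notes, which name no annotation release. The deposited matrices hold raw UMI counts for 27998 genes, with no normalisation by the authors, and the other deposited files hold gene names and barcodes. The libraries held 43767864 UMIs in 5049 barcodes with CpG, 46556726 in 5133 with R848 and 43537067 in 5344 in Control. The members and gene lists were chosen with earlier results of these data known.

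UMIs of B-lineage cells were summed per library, scaled to CPM and compared as log2 ratios with 5 CPM added. No count model was run with 1 library per group. Clusters came from 2000 variable genes, 20 principal components, 15 neighbours and Leiden resolution 1. Doublets were scored per library with 30 components, 50 neighbours and 2 simulated doublets per cell, marking 0.8% per 1000 cells. The clusters with dendritic genes were found, and left out as an alternative, after the data were seen; the clustering without genes that differed was added then too. Other than list members and Tlr7 and Tlr9, the text names the 12 highest and 5 lowest genes against the other cells (at least 50 CPM and 20 UMIs, same direction in every library) and the 6 highest and 4 lowest per comparison (at least 100 CPM and 20 UMIs, 2-fold, interval leaving out 1); leading genes of clusters, Prg2 with CpG, Cd1d1, Klk1 and Cox6a2 were named after their values were seen. Of 273 list genes 258 were in the matrices; the 12 immunoglobulin constant genes were not analysed here. Coordinates are those of GENCODE M21 (GRCm38), found for 349 of 349 genes. Some genes that these rules name are not reported here. The comparison script was tested on simulated data. Tools were Python 3.11.15, NumPy 2.4.6, SciPy 1.17.1, pandas 2.3.3, scanpy 1.11.5, scikit-learn 1.9.0, leidenalg 0.10.2 and matplotlib 3.10.9.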

Additional observations from a re-analysis of the deposited data

How the results depend on the processing

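No paired analysis was possible because each group has 1 library, and no library could be left out. Leaving out the dendritic-gene clusters (added after seeing the data) moved genes higher with CpG than in Control to 222 (334 in the main values), plasma genes higher with R848 than in Control to 1 (3), genes lower with R848 than with CpG to 113 (231), interferon-stimulated genes higher with R848 than with CpG to 3 (0), and the CpG share of kept cells to 0.86% (1.13%). Dropping cells over 25 dendritic marker UMIs per 10000 made that interferon count 1. A pseudocount of 20 CPM gave 184 higher and 34 lower genes for CpG over Control (116 lower in the main values), 124 and 65 for R848 over Control (303 and 185), 41 and 81 for R848 over CpG (160 higher), and 492 and 557 for B-lineage over other cells (809 and 854). A minimum of 100 CPM, which tests fewer genes, gave 92 and 20, 69 and 37, 24 and 46, and 277 and 315; interferon-stimulated genes were then 15 (33) with CpG and 13 (28) with R848, and plasma genes 2 (4) and 1. Within the largest cluster CpG over Control gave 184 higher and 64 lower genes, 14 interferon-stimulated and 1 plasma, R848 over Control gave 82 lower, and R848 over CpG gave 92 higher, 90 lower and 12 interferon-stimulated. Without the dividing, plasma-like and dendritic-gene clusters (added) CpG over Control gave 73 lower genes, 18 interferon-stimulated and 0 plasma, R848 over Control gave 121 lower and 0 plasma, and R848 over CpG gave 97 higher and 5 interferon-stimulated. Resolution 2 moved the plasma share of cells to 6.67% (17.6%), and leaving out high doublet scores moved the dendritic-gene share to 10.1% (15.2%). Of 812 values for single genes 657 stayed within their interval, 134 moved and 21 changed sign. The changes of sign in the largest cluster were Ccr7 (-0.57) for R848 over Control and, for R848 over CpG, Hist1h2ae (-2.48), Prg3 (-2.48), Tuba1b (-0.56), Wfdc17 (2.33), Ccl4 (2.33), Ccl22 (0.61), Isg15 (1.495) and Irf7 (1.52). Without the dividing, plasma-like and dendritic-gene clusters they were Ccr7 (-0.015) and Jchain (-0.82) for R848 over Control and Hist1h2ae (-2.09), Ccna2 (-0.23), Tuba1b (-0.25), Wfdc17 (0.69), Ccl4 (1.05), Isg15 (0.70) and Irf7 (0.69) for R848 over CpG. Without the dendritic-gene clusters alone they were Wfdc17 (0.84) and Ccl4 (0.56), and without cells over the dendritic limit Ccl4 (0.78). Each of these settings leaves fewer cells. CPM without immunoglobulin genes was not run, because the matrices used hold none of the 12. 1 UMI was worth 1.39 to 2.09 CPM, which limits every gene under about 20 CPM.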

Other observations

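Some B-lineage values outside the comparisons rest on single cells or on the dendritic-gene clusters. Klk1, a kallikrein gene of the plasmacytoid dendritic cell list, was at 20.4 CPM with CpG and had no UMI with R848 or in Control, and all 10 UMIs were in 1 cell. Cox6a2, of the same list, was at 22.4 CPM with CpG, 2.78 CPM with R848 and 4.18 CPM in Control, and its 11 CpG UMIs were also in 1 cell. Cd1d1, which presents lipids, was at 122 CPM with CpG, 34.7 CPM with R848 and 16.7 CPM in Control, but at 35.8 CPM with CpG, 35.8 CPM with R848 and 18.4 CPM in Control without the dendritic-gene clusters. Apoe, which encodes a lipid carrier, was at 13468 CPM in the plasma-like cluster and 15263 CPM in the cluster led by Lipc and Prg3, against 1986 CPM in the cluster led by Ifit3 and Nxpe3. Ccr10, Prg2 and Prg3 were seen at 0.28, 0.67 and 0.83 CPM in the other kept CpG cells.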
